A study of Mus musculus with 4 samples.

Results

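The Trav genes, the variable segments of the T cell receptor alpha chain, were examined in T cells isolated from mouse tumours. Members were all rows of the deposited table whose symbol in GENCODE M21 starts with Trav, which gave 112 of the 21146 genes in the table. They comprised 106 functional segments and 6 pseudogenes in 20 families, out of 128 Trav genes annotated on the plus strand of chromosome 14 (GRCm38) between positions 52427928 and 53977678. The other 16 annotated genes, 14 of them pseudogenes, were not analysed here. Messenger levels had been read by RNA sequencing 21 days after C57BL/6 mice were given a tumour. The cells came from HPK1-/- mice (KO1 and KO2), labelled as lacking HPK1, a kinase of blood cells encoded by Map4k1, or from wild-type mice (WT1 and WT2). The labels name neither the tumour, the mutant allele, the age of the mice nor the markers used to isolate the cells, and give no number of mice behind each pair of libraries. A p-value here rests on the spread within those pairs, which may be technical only.

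An alpha chain gene is built in the thymus by joining a Trav segment to a joining segment, and its transcript is then spliced to the exons of the constant gene Trac. The Trav segment encodes the first and second of the loops that touch the peptide and its MHC molecule, while the last loop lies at the join. The cells of a T cell clone share a rearrangement, so in a bulk sample the Trav transcripts record which segments the cells had rearranged and how much of each message they held. Some segments, named with dv, can also be joined into the delta chain of gamma delta T cells. In C57BL/6 mice a large part of the cluster is present in several copies, which carry the letters d and n after the family number.

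The copies are so alike that short reads can match several of them. Over 92 pairs of copies of the same name, the V exons were 91.4% to 100% identical, with a median of 97.9%, and 21 pairs covering 42 segments had V exons without a difference. Stretches of 120 nt from the V exons of 3 such groups are shown because they hold the 3 segments with the largest log2 fold changes, Trav12n-3, Trav12d-3 and Trav14-1, and the segments of the invariant natural killer T cell receptor. Sequences are those of GENCODE M21 transcripts on GRCm38, plus strand, read 5′ to 3′, and capitals mark the letters at which members of a group differ. The first group is Trav12n-3 (chr14:53240959-53241078), Trav12d-3 (chr14:52929997-52930116) and Trav12-3 (chr14:53621960-53622079).
Trav12n-3: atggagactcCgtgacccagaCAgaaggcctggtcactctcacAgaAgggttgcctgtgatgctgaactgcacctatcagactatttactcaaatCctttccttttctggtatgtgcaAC
Trav12d-3: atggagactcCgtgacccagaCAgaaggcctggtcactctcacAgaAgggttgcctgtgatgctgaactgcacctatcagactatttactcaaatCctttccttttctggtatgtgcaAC
Trav12-3: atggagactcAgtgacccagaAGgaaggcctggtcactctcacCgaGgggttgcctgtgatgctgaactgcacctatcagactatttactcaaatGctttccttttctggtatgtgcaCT
Trav12n-3 and Trav12d-3 shared every letter of the V exon, and Trav12-3 differed from both at 10 of 301 positions, 8 of them in this stretch.

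The second group is Trav14-1 (chr14:53554311-53554430), Trav14n-1 (chr14:53166931-53167050) and Trav14d-1 (chr14:52855919-52856038).
Trav14-1: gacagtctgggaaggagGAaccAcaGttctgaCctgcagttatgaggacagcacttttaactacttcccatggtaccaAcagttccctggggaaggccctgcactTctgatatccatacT
Trav14n-1: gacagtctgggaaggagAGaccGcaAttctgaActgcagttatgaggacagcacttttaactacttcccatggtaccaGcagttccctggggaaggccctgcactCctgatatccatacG
Trav14d-1: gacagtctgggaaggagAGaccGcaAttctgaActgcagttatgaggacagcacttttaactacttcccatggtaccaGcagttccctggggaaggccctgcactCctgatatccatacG
Here the V exons of the n and d copies were without a difference, and that of Trav14-1 differed from them at 13 of 312 positions.

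The last group holds the segments of the invariant natural killer T cell receptor, Trav11 (chr14:53519614-53519733) and Trav11d (chr14:52824668-52824787), with the pseudogene Trav11n (chr14:53135433-53135552).
Trav11: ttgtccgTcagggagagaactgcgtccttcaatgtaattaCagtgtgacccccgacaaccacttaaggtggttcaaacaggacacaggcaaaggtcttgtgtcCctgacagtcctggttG
Trav11d: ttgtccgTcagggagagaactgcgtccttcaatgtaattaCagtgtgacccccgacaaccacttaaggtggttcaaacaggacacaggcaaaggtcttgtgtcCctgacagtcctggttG
Trav11n: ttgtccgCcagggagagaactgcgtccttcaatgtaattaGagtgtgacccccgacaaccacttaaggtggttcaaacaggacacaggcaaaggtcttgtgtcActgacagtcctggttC
Trav11 and Trav11d could not be told apart over the 290 positions compared, and Trav11n differed from them at 6.

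Map4k1 (ENSMUSG00000037337, chromosome 7, 28982050 to 29003279) was at 20.6 and 26.5 FPKM in the libraries labelled knockout, against 48.9 and 41.1 FPKM in wild type (log2 fold change -0.91, SE 0.15, limma adjusted p = 0.0134). FPKM is a fragment level corrected for transcript length and library scale, and all log2 fold changes are KO minus WT on the log2(FPKM + 1) scale, which understates the change of low genes. Transcript of the targeted gene was thus reduced but not absent, and the adjusted p ran from 0.0107 to 0.0764 over 16 alternative settings, with 0.0634 when KO1 was left out. T cell genes were abundant in every library: Cd3e, a CD3 chain of the receptor complex, stood at 148 and 142 FPKM in KO and 149 and 153 FPKM in WT. Of 6 T cell marker genes, 3 were called higher in KO (Trac, Cd2 and Cd5) and 1 lower (Cd3d). Among all tested genes, 15.4% were called higher and 13.0% lower. Cd2, an adhesion receptor of T cells, was at 244 and 257 FPKM in KO and 165 and 177 FPKM in WT (log2 fold change 0.54, limma adjusted p = 0.0103), and passed in 14 of 16 alternatives, not without KO1 or KO2. Cd5, an inhibitory co-receptor, was at 33.9 and 33.8 FPKM in KO and 25.01 and 21.7 FPKM in WT (log2 fold change 0.52, limma adjusted p = 0.0190), and passed in 13, not without KO1 or KO2 or with no filter. The 6 markers summed to 1324 and 1295 FPKM in KO and 1193 and 1257 FPKM in WT, and the part of T cell content in the Trav levels given below was not tested. Cd8a, a chain of the CD8 co-receptor, was at 184 and 189 FPKM in KO and 208 and 212 FPKM in WT, and Cd4 at 18.0 and 15.6 FPKM in KO and 14.9 and 15.1 FPKM in WT, and neither passed (limma adjusted p = 0.130 and 0.319). Cd8b1, the other CD8 chain, was at 198 and 204 FPKM in KO and 174 and 173 FPKM in WT and did not pass (log2 fold change 0.21, limma adjusted p = 0.0756), except with equal totals (log2 fold change 0.37, limma adjusted p = 0.0147; 0.0147 to 0.367 over the 16 alternatives). Of 6 myeloid marker genes none passed the filter for testing, and their summed level was 0.434 and 0.483 FPKM in KO and 1.33 and 1.16 FPKM in WT. Of the B cell markers, Ighm was at 93.4 and 86.2 FPKM in KO and 43.6 and 46.0 FPKM in WT, while Cd79a, a defining marker, was at 0.149 and 0.0359 FPKM in KO and listed at 0 in WT.

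Trav transcripts were more abundant in the KO libraries as a group. Their summed level was 1756 FPKM in KO1 and 1663 FPKM in KO2, against 1046 FPKM in WT1 and 1041 FPKM in WT2, a ratio of means of 1.64. Both KO sums were above both WT sums, and the exact permutation test gave p = 0.333, which is the smallest value that 2 libraries against 2 can give. The ratio was 1.62 with median-of-ratios scaling and 1.83 with equal library totals. For the 72 segments whose fragments could be recovered, it was 1.77 in FPKM and 1.48 in fragments over library scale. Trav genes held 0.201% and 0.189% of all FPKM in KO and 0.107% in each WT library. In bulk RNA, fewer cells of a type and less RNA per cell cannot be told apart, and this applies to every level given here.

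Trac, the constant gene of the alpha chain, was at 423 and 399 FPKM in KO and 302 and 322 FPKM in WT. It rose by a log2 fold change of 0.40 (SE 0.08, limma adjusted p = 0.0220), and was past the threshold in 13 of 16 alternatives, but not without KO1 or without KO2 (adjusted p from 0.00737 to 0.177 over the 16). The Trav sum divided by Trac was 4.15 and 4.17 in KO and 3.46 and 3.23 in WT, a ratio of 1.24 with no overlap (exact permutation p = 0.333). In FPKM the Trav sum thus differed between the genotypes by more than Trac did, whose ratio of means was 1.32. For the 72 segments with recovered fragments, the ratio was 1.77 in FPKM and 1.48 in fragments over library scale. The Trav sum may also hold fragments counted at more than 1 copy.

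The summed level of the 24 Trbv segments was 1166 and 1161 FPKM in KO and 1259 and 1397 FPKM in WT. As a share of each library's total FPKM it was 0.134% and 0.132% in KO and 0.129% and 0.143% in WT, and the genotypes overlapped. Trbc2, a beta constant gene, fell by 0.41 (adjusted p = 0.0270 in limma), and Trbc1 had a log2 fold change of -0.43 that missed the threshold (limma adjusted p = 0.0624). Among the other genes of the receptor complex, Cd3d fell by 0.37 (limma adjusted p = 0.0201), and Cd3e, Cd3g and Cd247 did not pass. Neither Trbc2 nor Cd3d passed without KO1 or without KO2, nor Trbc2 without WT1. With equal totals neither passed (log2 fold change -0.25 for Trbc2 and -0.21 for Cd3d, limma adjusted p = 0.0733 and 0.0666). Trbc2 also missed the threshold with quantile normalization (log2 fold change -0.23, limma adjusted p = 0.0996) and with no filter (limma adjusted p = 0.0914). Over the 16 alternatives the adjusted p ran from 0.0224 to 0.192 for Trbc2 and from 0.0187 to 0.174 for Cd3d. In all, 1 of the 7 tested genes of the receptor complex was higher and 2 were lower, where 15.4% of all tested genes were higher and 13.0% lower. The difference between the alpha and the beta segments was not tested.

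Segment by segment, 105 of the 112 Trav genes had at least 1 FPKM in at least 2 libraries and were tested with limma over 11947 genes. At an adjusted p under 0.05, 31 rose and 0 fell in KO. That is 29.5% of the tested segments called higher, where 28.4% of all tested genes were called in either direction, 15.4% higher and 13.0% lower. Without adjustment, 45 segments were higher and 2 lower at p under 0.05. The median log2 fold change was 0.50 over the tested Trav segments and 0.04 over all tested genes, with 85 segments above 0 and 20 below. For the 66 tested segments with recovered fragments, it was 0.50 by FPKM and 0.34 on a common length correction, as given below. Both KO libraries lay above both WT libraries for 60 segments (57.1%, against 38.6% of all tested genes), below them for 8 (31.4% of all genes), and the genotypes overlapped for 37. Of the 22 tested Trbv segments, 0 were higher and 4 lower, with 1 higher and 8 lower at an unadjusted p under 0.05 and a median log2 fold change of -0.21.

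The count of segments depended on single libraries and on scaling. Without KO1, 8 segments passed, all higher, and without KO2, 10 were higher and 2 lower, the 2 being Trav11 and Trav11d. Without WT1, 39 were higher and 2 lower, Trav6d-5 and Trav13n-3. Scaling to equal totals moved the median log2 fold change of all genes to 0.18 and gave 46 higher and 0 lower Trav segments, while all genes then split into 3411 higher and 1120 lower in place of 1839 and 1551.

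**Figure D1:**
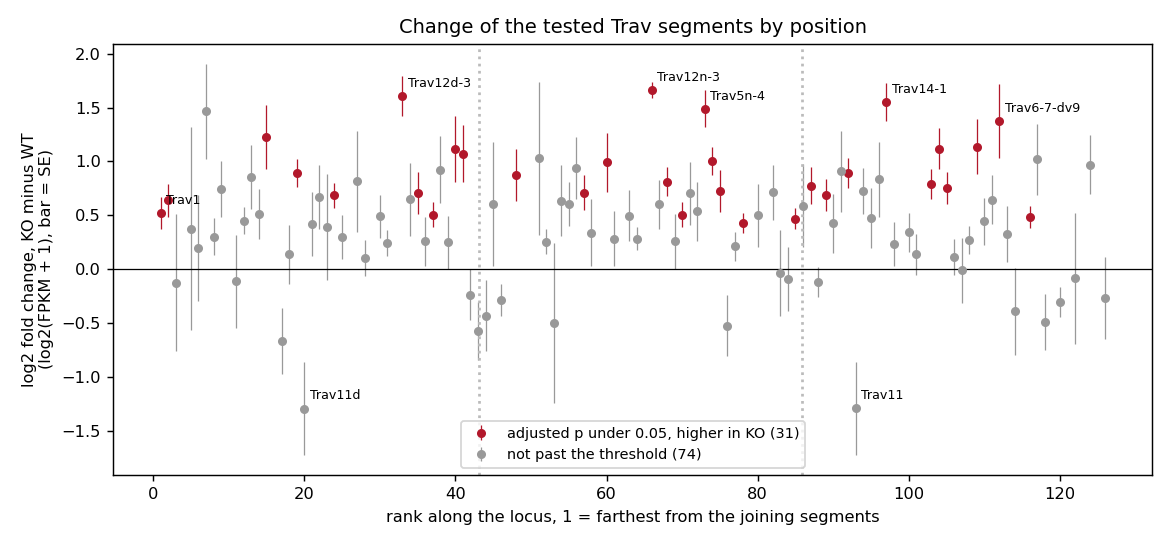
Log2 fold change, KO minus WT on the log2(FPKM + 1) scale, of the 105 tested Trav segments against rank along the locus, with bars for the SE and dotted lines that divide the annotated segments into 3 sections of nearly equal number. The 31 segments past the threshold, in red, are all above 0 and lie in each section of the locus, and Trav11 and Trav11d are the lowest points.

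On the log2(FPKM + 1) scale the Trav12-3 group held the largest rises. Trav12n-3 (ENSMUSG00000093915, chromosome 14, 53240745 to 53241244) was at 127 and 125 FPKM in KO and 38.6 and 39.7 FPKM in WT, and was the most abundant Trav segment of both KO libraries. The genotypes were far apart and the libraries of each close together (log2 fold change 1.66, SE 0.07, limma adjusted p = 0.000604). Its twin in V exon sequence, Trav12d-3, was at 91.2 and 68.5 FPKM in KO and 29.0 and 22.0 FPKM in WT (log2 fold change 1.61, SE 0.19, limma adjusted p = 0.00653). Trav12-3, which differs in the letters shown above, was less abundant, at 13.7 and 13.4 FPKM in KO and 7.08 and 4.55 FPKM in WT, and also rose (log2 fold change 1.12, limma adjusted p = 0.0145). Trav12n-3 passed in all 16 alternatives, Trav12d-3 in 15 and Trav12-3 in 12, but not without KO1 or without KO2.

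Trav14-1 and Trav5n-4 stood next. The order at the top rests on the scale, since the log2 fold change of Trav14-1 was above that of Trav12n-3 with a pseudocount of 0.1 (1.90 against 1.68) or 0.5 (1.72 against 1.67), with equal Trav sums (0.99 against 0.96) and without WT1 (1.77 against 1.64), as was its ratio of mean FPKM (3.76 against 3.22). Trav14-1 (ENSMUSG00000076840, chromosome 14, 53554022 to 53554558) was at 8.04 and 8.72 FPKM in KO and 2.71 and 1.74 FPKM in WT (log2 fold change 1.55, SE 0.18, limma adjusted p = 0.00618). Trav14n-1 and Trav14d-1, which differ from it in the letters shown above, were several times more abundant and rose less, by log2 fold changes of 0.71 and 0.68 (limma adjusted p = 0.0306 and 0.0138), though not without KO1 or without KO2. Trav5n-4 (ENSMUSG00000096168, chromosome 14, 53312904 to 53313422) was at 18.6 and 20.1 FPKM in KO and 5.19 and 7.49 FPKM in WT (log2 fold change 1.49, SE 0.17, limma adjusted p = 0.00619). Trav14-1 and Trav5n-4 both passed in all 16 alternatives.

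The remaining large rises were less steady. Trav6-7-dv9 was at 25.3 and 36.1 FPKM in KO and 7.61 and 15.8 FPKM in WT (log2 fold change 1.38, limma adjusted p = 0.0368), and passed in 9 of 16 alternatives, whose adjusted p ran from 0.00813 to 0.191. Trav8d-1 was at 5.99 and 6.09 FPKM in KO and 1.20 and 3.12 FPKM in WT (log2 fold change 1.23, limma adjusted p = 0.0355). Trav9-4 was at 11.1 and 6.33 FPKM in KO and 3.71 and 2.87 FPKM in WT (log2 fold change 1.14, limma adjusted p = 0.0295). Both KO libraries were above both WT libraries for each of these. Trav8d-1 passed in 12 alternatives and Trav9-4 in 11. None of these 3 passed without KO1. Trav6-7-dv9 and Trav8d-1 did not pass without KO2, Trav6-7-dv9 and Trav9-4 not without WT1, and Trav9-4 not without WT2.

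The most abundant segments rose as well. Trav6n-7 had 93.8 and 75.2 FPKM in KO and 44.2 and 38.7 FPKM in WT, and Trav6d-7, with the same V exon, 71.4 and 50.5 FPKM in KO and 35.6 and 22.1 FPKM in WT. Their log2 fold changes were 1.00 and 1.07 (limma adjusted p = 0.00832 and 0.0363). Trav3n-3, the most abundant segment of both WT libraries, had 77.7 and 67.4 FPKM in KO and 54.4 and 47.2 FPKM in WT, a smaller log2 fold change of 0.51 (limma adjusted p = 0.0281). Trav3d-3 followed it closely (0.51, limma adjusted p = 0.0318). Trav6-6 and Trav6d-6, a further pair without a difference in the V exon, both rose by 0.89 (limma adjusted p = 0.0112 and 0.00996). Without KO1, Trav6d-7, Trav6-6, Trav6d-6, Trav3n-3 and Trav3d-3 were not past the threshold, and the Trav3 pair and Trav6d-7 also not without WT2, nor the Trav3 pair without KO2.

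**Figure D2:**
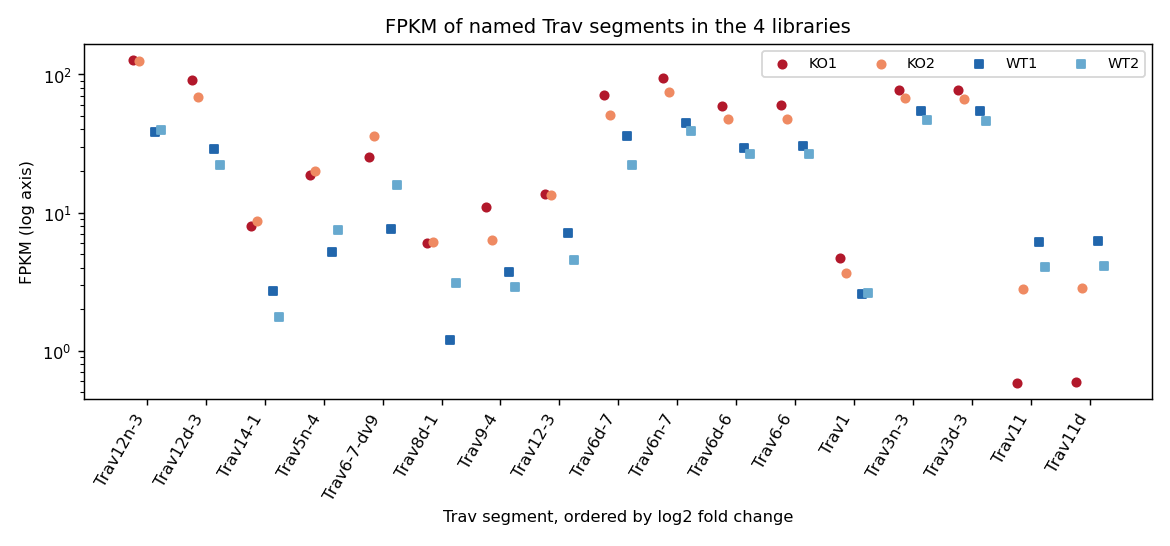
FPKM on a log axis of the 8 most abundant Trav segments, the 8 with the largest rises, and the Trav segments of invariant T cell receptors, with KO1 and KO2 as circles left of WT1 and WT2 as squares. Trav12n-3 is near 127 FPKM in KO and near 39.7 FPKM in WT, and Trav11 and Trav11d are the 2 segments with both KO points below both WT points.

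Trav11 stood lower in both KO libraries than in either WT library. Together with Traj18 it forms the alpha chain of invariant natural killer T cells, which see lipids on CD1d. It (ENSMUSG00000096615, chromosome 14, 53519303 to 53519859) was at 0.582 and 2.79 FPKM in KO and 6.13 and 4.03 FPKM in WT, with no overlap, but the difference did not pass (log2 fold change -1.29, SE 0.43, limma adjusted p = 0.0774). Trav11d had almost the same values (log2 fold change -1.29, limma adjusted p = 0.0777). Both passed in 2 of 16 alternatives, with adjusted p for Trav11 from 0.0208 to 0.245. The log2 fold change of Trav11 was -0.66 without KO1 and -1.92 without KO2. Zbtb16, the transcription factor of that lineage, was at 0.0549 and 0.0177 FPKM in KO and 0.501 and 0.368 FPKM in WT, too low to be tested, and the joining segments were not analysed here. Klrb1c, the NK1.1 receptor found on natural killer and many natural killer T cells, was at 3.95 and 3.81 FPKM in KO and 14.7 and 14.4 FPKM in WT (log2 fold change -1.67, limma adjusted p = 0.00126), and the part of such cells in the Trav11 difference was not tested. Trav1, which forms the receptor of mucosal-associated invariant T cells, was at 4.68 and 3.68 FPKM in KO and 2.57 and 2.61 FPKM in WT. Its log2 fold change of 0.52 was just inside the threshold (limma adjusted p = 0.0499), and in 12 of 16 alternatives, each left-out library among them, it was not.

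Of the 10 segments shared with the delta chain, all tested, Trav6-7-dv9 alone rose and 0 fell (limma), against 15.4% higher and 13.0% lower among all tested genes, with 2 higher and 0 lower at an unadjusted p under 0.05. Trav13-4-dv7 was at 5.62 and 8.66 FPKM in KO and 4.31 and 1.93 FPKM in WT, without overlap, and missed the threshold (log2 fold change 1.02, limma adjusted p = 0.0700). Trav4-4-dv10 and Trav15d-2-dv6d-2, the most abundant after Trav6-7-dv9, had log2 fold changes of 0.45 and 0.26 and did not pass. The median log2 fold change of the 10 was 0.25, and their summed level was 85.4 and 100.3 FPKM in KO and 52.8 and 80.3 FPKM in WT. Of 6 gamma delta markers, 3 were tested and lower in KO, Tcrg-C1, Tcrg-C2 and Tcrg-C4 (Tcrg-C1 not with any 1 library left out), and the list summed to 26.4 and 23.9 FPKM in KO and 48.7 and 56.0 FPKM in WT. Trdc, the delta constant gene, was near 0, at 0.332 and 0.571 FPKM in KO and 0.943 and 1.04 FPKM in WT, and Trdv4 was listed at 0 in all but WT2. The part of gamma delta cells in these levels was not tested.

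By family, the summed level lay higher in both KO libraries than in both WT libraries for 15 of 20 families, lower for 1 and overlapped for 4, where 38.6% of single genes lay higher and 31.4% lower. A sum over several members is not a like measure to a single gene. Of the single tested Trav segments, 60 lay higher (57.1%), 8 lower and 37 overlapped. Trav6 was the most abundant family, at 358 and 323 FPKM in KO and 195 and 175 FPKM in WT, and 5 of its 14 tested members rose. Trav12 followed at 316 and 294 FPKM in KO and 138 and 117 FPKM in WT, a ratio of 2.39, with all 9 members higher in both KO libraries and 4 past the threshold. Trav14 was at 195 and 197 FPKM in KO and 125 and 121 FPKM in WT, with 5 of 9 members past the threshold. Those 3 families held 14 of the 31 segments that rose. For comparison, 29.5% of all tested Trav segments and 15.4% of all tested genes were called higher.

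Trav3 summed to 185 and 167 FPKM in KO and 139 and 118 FPKM in WT, with a low ratio of 1.37. Trav7 summed to 163 and 174 FPKM in KO and 106 and 102 FPKM in WT. Of its 13 members 4 rose, where 15.4% of all tested genes were called higher. The small Trav5 family had nearly as high a ratio as Trav12, 2.37, from 40.1 and 45.3 FPKM in KO and 16.5 and 19.6 FPKM in WT. Trav11 was the family with lower sums in KO, 2.33 and 5.62 FPKM against 15.6 and 8.11 FPKM in WT. The 6 pseudogenes summed to 4.89 and 4.85 FPKM in KO and 5.28 and 6.71 FPKM in WT, and neither of the 2 tested, Trav11n and Trav13-3, passed.

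**Figure D3:**
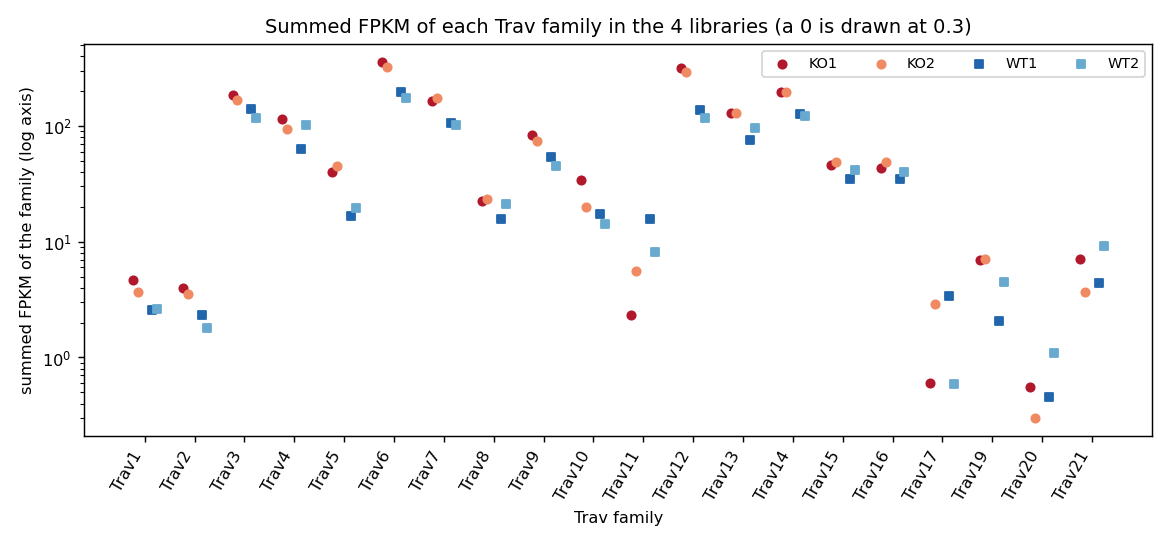
Summed FPKM on a log axis of each of the 20 Trav families in KO1 and KO2 (circles) and WT1 and WT2 (squares), with the value of 0 for Trav20 in KO2 drawn at the foot of the axis. In 15 families both KO points lie above both WT points, among them Trav12 at 316 and 294 FPKM in KO and 138 and 117 FPKM in WT, and the Trav11 points lie the other way.

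As a share of each library's own Trav sum, the picture was more mixed. By share, 3 families were higher in both KO libraries (Trav5, Trav6 and Trav12), 7 lower and 10 overlapped. By FPKM, a different measure, 38.6% of all tested genes lay higher and 31.4% lower. Shares within a library have a fixed total, so a higher share of some families lowers that of others. The lower families included Trav20, with 1 and 0 fragments in KO and 1 and 2 in WT. These counts were not tested. Trav12 made up 18.0% and 17.7% of Trav FPKM in KO and 13.2% and 11.3% in WT, the widest gap of any family. Trav3 made up 10.5% and 10.05% in KO and 13.3% and 11.3% in WT. With all libraries scaled to an equal Trav sum, 4 segments were called higher, Trav12n-3, Trav12d-3, Trav14-1 and Trav5n-4, and 10 lower, among them Trav11, Trav11d, Trav8-1 and Trav3-4 (limma), with a median log2 fold change of -0.15. These were calls among 105 tested segments. Without that scaling, 15.4% of all tested genes were called higher and 13.0% lower. At an equal Trav sum, the 4 segments called higher were those whose rise exceeded that of the Trav sum by this test.

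Nearly every segment had a value above 0 in every library, at unequal levels. Above 0 were 111 and 106 of the 112 segments in KO and 108 and 104 in WT, and at 20 FPKM or more 22 and 25 in KO and 16 and 14 in WT. Of the 72 segments with recovered fragments, 23 and 24 had under 10 fragments in KO and 23 and 34 in WT. Where copies share a V exon, a value above 0 does not show which copy was transcribed. Evenness was lower in KO: the effective number of segments, the number of equally abundant segments with the same Shannon entropy, was 58.8 and 61.2 in KO and 68.2 and 66.3 in WT. The difference of -7.30 was larger than the spread within either genotype (exact permutation p = 0.333), and -4.58 without the most abundant segment. Trav12n-3 alone took 7.23% and 7.52% of Trav FPKM in KO, while the leading segment of WT, Trav3n-3, took 5.20% and 4.53%. The 10 most abundant segments took 42.8% and 38.6% in KO and 35.1% and 34.1% in WT.

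Share profiles of the 2 genotypes were not much farther apart than those of the 2 WT libraries. The Bray-Curtis dissimilarity, the percentage of the shares that would have to move to turn one profile into another, was 10.1% between KO1 and KO2 and 17.5% between WT1 and WT2. Across genotypes it was 15.2% to 19.2%, a range that includes the WT pair.

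**Figure D4:**
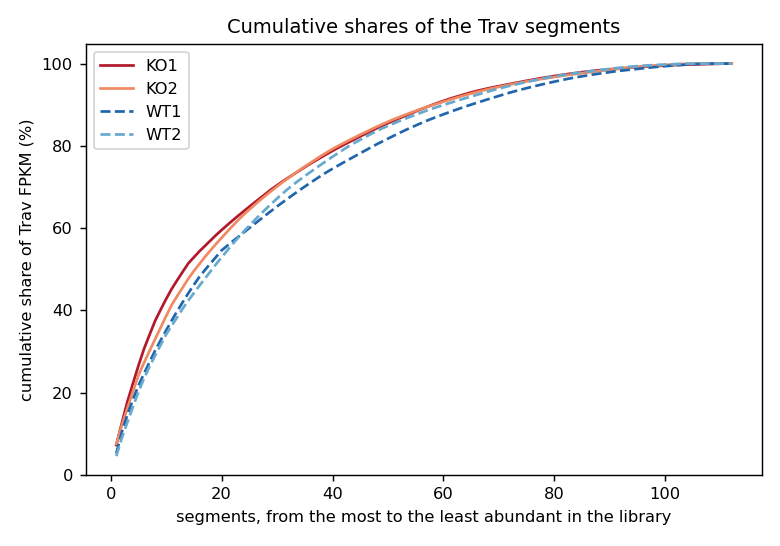
Cumulative share of Trav FPKM, in percent, over the 112 segments ordered from the most to the least abundant within each library, with KO1 and KO2 as full lines and WT1 and WT2 as broken lines. The KO lines climb faster, and their first 10 segments hold 42.8% and 38.6% of the total, against 35.1% and 34.1% in WT.

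The rises were spread along the locus. The annotated segments were divided by rank into 3 sections of nearly equal number. Of the section farthest from the joining segments, 10 of 36 tested segments rose, with 11 of 35 in the middle and 10 of 34 in the nearest. Among all tested genes, 15.4% were called higher and 13.0% lower. The median log2 fold changes of the sections were 0.50, 0.51 and 0.48. Across the 105 tested segments, the Spearman correlation of log2 fold change with rank along the locus was -0.0037, given as a description because copies share reads and libraries. The middle section held the largest share of Trav FPKM, 43.7% and 44.6% in KO and 42.6% and 44.6% in WT, and the shares of each section overlapped between genotypes. Segments of the n copy made up 40.9% and 40.6% in KO and 38.8% and 39.3% in WT.

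Copies with the same V exon mostly had like changes. Of the 21 pairs with V exons that did not differ, all 21 had fold changes of the same sign and 20 had the same call. The 2 copies of such a pair may hold the same fragments, so this agreement is not independent support. Of the 105 tested segments, 85 had fold changes above 0. The levels of these pairs were not simply repeated, since 9 pairs were within 0.2 of each other on the log2(FPKM + 1) scale in every library and the widest gap was 1.41. Of the 11 such pairs with fragments of both copies recovered, as described below, 1 had equal fragments in all 4 libraries. How fragments that match several copies were divided is not given in the sources used here, so the split within such a pair is uncertain. With copies added to a single value per name, 47 names were tested, and 18 rose and 0 fell (limma). In the fit with copies kept apart, 15.4% of all tested genes were called higher and 13.0% lower. The added Trav12-3 copies were at 232 and 207 FPKM in KO and 74.7 and 66.3 FPKM in WT (log2 fold change 1.62, limma adjusted p = 0.00129). This sum still depends in part on the split, because the copies differ in transcript length. In KO1, 1 fragment was worth 0.514 FPKM at Trav12n-3, 0.553 FPKM at Trav12d-3 and 0.253 FPKM at Trav12-3. Nor does the sum show whether shared fragments were counted at more than 1 copy.

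The fragments behind these levels could be recovered. For 72 of the 74 Trav segments with a single annotated transcript, the FPKM in all 4 libraries were whole multiples, within 0.1, of the FPKM worth of 1 fragment at that length, and 97.3% to 98.6% of values per library came out whole. These 72 segments held 2676 and 2597 fragments in KO and 1722 and 1509 in WT, and the median segment 24 and 22 in KO and 17.5 and 14 in WT. Trav12n-3 had 247 and 253 fragments in KO and 90 and 77 in WT, Trav5n-4 32 and 36 in KO and 11 and 13 in WT, and Trav14-1 24 and 27 in KO and 9 and 5 in WT. Trav11 had 1 and 5 fragments in KO and 13 and 7 in WT, and Trav11d the same 4 numbers. Per unit of library scale, KO over WT was 2.71 for Trav12n-3 (95% exact conditional interval 2.27 to 3.25), 3.30 for Trav14-1 (1.80 to 6.45) and 0.271 for Trav11 (0.0892 to 0.701). The intervals cover counting error only.

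What 1 fragment was worth differed between libraries for transcripts this short. At 328 nt, the shortest of these segments, it was 0.724 and 0.693 FPKM in KO and 0.556 and 0.697 FPKM in WT. At 399 nt it was 0.335 and 0.323 FPKM in KO and 0.301 and 0.349 FPKM in WT. Fitted mean fragment lengths were 267 and 266 nt in KO and 244 and 257 nt in WT. Counted as fragments over library scale, without a length correction, the 72 segments had a KO over WT ratio of 1.48, where their FPKM gave 1.77. With fragments put on a common length correction, limma called 23 Trav segments, all higher. The 39 tested segments without recovered fragments stayed on their FPKM in that fit and held 9 of the 23. Among the 66 tested segments with recovered fragments, 14 rose on that scale and 21 by FPKM (31.8%), the 14 being among the 21. By FPKM, 15.4% of all tested genes were called higher. The median log2 fold change of the 66 segments was 0.34 on that scale and 0.50 by FPKM. For each of the 66, the log2 fold change was lower on that scale. Trav12n-3 then rose by 1.42, Trav14-1 by 1.42 and Trav5n-4 by 1.24 (limma adjusted p = 0.00130, 0.00991 and 0.00511).

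**Figure D5:**
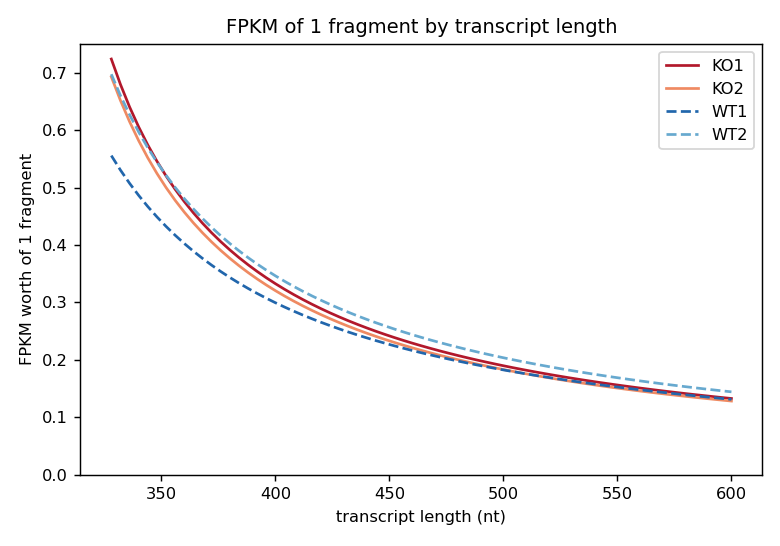
FPKM worth of 1 fragment, as fitted to the steps between low values, against transcript length from 328 to 600 nt in KO1 and KO2 (full lines) and WT1 and WT2 (broken lines). At 328 nt the value is 0.724 and 0.693 FPKM in KO and 0.556 and 0.697 FPKM in WT, with WT1 the lowest at the short end.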

How the data were processed

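RNA of 2 HPK1-/- and 2 wild-type libraries was extracted with Trizol and sequenced after NEBNext Ultra library preparation, per the labels. The authors deposited 1 table of FPKM values with a row per Ensembl gene; the submitters' processing notes name HISAT, Cuffnorm and GRCm38, and versions, annotation, strand setting and scaling option are not given in the sources used here. Symbols and positions came from GENCODE M21, which matched 21011 of 21146 gene IDs.

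Values were taken as log2(FPKM + 1), a gene needed 1 FPKM or more in 2 of the 4 libraries, and the 11947 that met this were tested with limma 3.58.1 (R 4.3.3) with a variance trend, two-sided, with Benjamini-Hochberg adjustment over all of them and a threshold of 0.05. The fit had 2 residual and 3.39 prior degrees of freedom. Sums, shares and effective numbers were computed per library and compared by exact permutation over libraries (Python 3.11.15, scipy 1.17.1).

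Fragments were recovered from the steps between low FPKM values. The FPKM of 1 fragment was fitted by length on single-transcript genes of 325 to 620 nt other than Trav, and the library scale on genes of 1000 to 3000 nt, which gave 22610000 and 23350000 fragments in KO and 21380000 and 20200000 in WT. It may differ from the true depth, which is not known. Between 11609 and 11825 genes per library reached 1 FPKM. Both methods were tested on simulated data.

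The named segments were the 8 most abundant, up to 8 per direction with the largest change past the threshold without overlap, Trav11, Trav11d and Trav1, and the segments with dv in the name; the families were the 5 with the highest mean sum, and others named were chosen after their values were seen. The members, lists and rule were chosen with earlier results of these data known. Alternatives covered the pseudocount, the filter, scaling, the variance model, a replicate block, leaving out each library, adding copies and equal Trav sums; fragment-scaled values and copies counted once were chosen after seeing the data.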

Additional observations from a re-analysis of the deposited data

How the results depend on the processing

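With 2 libraries per genotype, a call borrows its error from other genes. In place of 31 Trav segments and 3390 genes past the threshold, no filter on low values gave 3 and 1231, and leaving out 1 library in turn gave 8 to 41 and 579 to 3235. A left-out library leaves a single one in its genotype, which is then assumed to vary like the other pair. Copies added to one name gave 18 and an equal Trav sum 14. With the replicate number as a block, 38 segments and 2801 genes passed, all 38 higher. Deviations of libraries with the same number correlated by -0.03 over all tested genes and 0.19 over the 112 segments, so the numbers are not taken to pair the libraries. Other settings gave 23 to 46 segments, all higher. The Trav sum ratio ran between 1.51 and 1.83, the ratio over Trac between 1.14 and 1.29, and the difference in effective number between -8.48 and -2.87. Below that range of sum ratios, the 72 segments with recovered fragments gave 1.48 in fragments over library scale. The difference of -2.87 was over names with copies added, where the effective number is smaller (mean 23.9 in KO and 26.8 in WT). The ratio of KO to WT means was 0.893 over names and 0.892 over segments.

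The KO minus WT difference in the share of the section nearest the joining segments, -0.86 percentage points, became 1.80 with 2 sections in place of 3, and -1.76 to 0.051 with 1 library left out. Low fold changes also turned sign. Trav15-2-dv6-2 was at 0.070 with quantile normalization and 0.082 with equal totals, and Cd3e at 0.099 with equal totals. With 1 library left out, the values ran from -0.40 to 0.38 for Trav15-2-dv6-2, -0.0044 to 0.52 for Trav15d-2-dv6d-2, -0.89 to 0.023 for Trav16d-dv11, -0.0046 to 0.48 for Trav15-1-dv6-1 and -0.72 to 0.18 for Trav21-dv12. At an equal Trav sum, Trav1 was at -0.024, Trav14d-1 at -0.0078, Trav15d-1-dv6d-1 at -0.30, Trav15d-2-dv6d-2 at -0.40, Trav3d-3 and Trav3n-3 at -0.19, Trav15-1-dv6-1 at -0.20 and Trav4-4-dv10 at -0.22, since that scaling takes out the difference in the sum. The alternatives for joining segments gave no value.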

Other observations

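Over the recovered fragments of the Trav segments, the chi-square per degree of freedom was 1.52 between KO1 and KO2 and 2.60 between WT1 and WT2, and 2.87 to 4.16 between libraries of different genotype. The statistic sets differences against counting error only, and fragments that copies of a segment share may not be independent.

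A pair of segments followed the replicate number and not the genotype. Trav3-1 had 9 fragments in KO1 and 1 in KO2, with 9 in WT1 and 2 in WT2. Trav5-1 had 8 in KO1 and 0 in KO2, with 5 in WT1 and 0 in WT2. They were the 2 of the 72 segments with at least 5 fragments in both libraries numbered 1 and at most 2 in both numbered 2, and 0 segments showed the converse. They were chosen after their values were seen, and no test was made.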
